A study of Mus musculus with 16 samples.

Results

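Glycolysis was followed through 10 of the 19999 genes in the deposited table, namely Hk1, Hk2, Pfkp, Aldoa, Aldoc, Gapdh, Pgk1, Eno2, Pkm and Ldha. The genes were taken by name, at a time when earlier results of these data were known. They encode enzymes from the first step of the pathway to lactate. Nuclei of the medial PFC (prelimbic and infralimbic cortex) of 16 male mice aged 22 weeks were sequenced, 1 library a mouse and 4 mice a group. The WT control mice were B6;129 mice given the alcohol dehydrogenase inhibitor pyrazole in saline and kept in air. The WT alcohol mice were B6;129 mice given pyrazole with ethanol and exposed to intermittent alcohol vapor. The 3xTg-AD group was the 3xTg-AD line with pyrazole and air, and the 3xTg-AD alcohol group was the same line with pyrazole, ethanol and vapor. Pyrazole was thus common to all groups. The 3xTg-AD line carries mutant human APP and tau transgenes under a Thy1 cassette, which drives expression in neurons, and a mutant presenilin 1 knock-in. The comparison of lines holds the transgenes and the rest of the genetic background together, and these cannot be told apart. All mice had also been through a water maze before tissue was taken. Tissue was taken days after the last vapor exposure, so that the alcohol groups stand for a history of exposure and not for current intoxication.

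Glycolysis breaks glucose down to pyruvate in the cytosol and yields ATP without oxygen. Several of its steps are run by isoenzymes from separate genes, and cells choose among them. In the brain, astrocytes are known for a high glycolytic rate and for the aldolase encoded by Aldoc, neurons for the enolase encoded by Eno2, and microglia for raising glycolysis when they become reactive. Hypoxia-inducible factor is the best known transcription factor of the pathway.

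Libraries held 4955 to 9096 nuclei each, with 9622031 to 17544364 unique molecular identifiers (UMIs, each standing for 1 captured RNA molecule). Nuclei were sorted into 16 tested classes by marker genes, none of which was a glycolysis enzyme, and 77809 of the 114512 nuclei fell into them. Class names stand for nuclei carrying the markers, so that microglia below means microglia-like nuclei. A further 31.36% of the nuclei stayed unassigned, with a median of 868 UMIs against 2017 in assigned nuclei. Any pair of libraries shared 3 to 27 cell barcodes. Levels are given in UPM, the UMIs of a gene for every 1000000 UMIs of the same mouse and class. They say how much of the captured RNA a gene takes, so that fewer molecules of a gene and more of all others cannot be told apart. There were 3 libraries that stood apart. Gm42418, a transcript that overlaps ribosomal RNA sequence, took 29046.5 UPM in WT control mouse 26, 19430 in WT control mouse 27 and 17914 in 3xTg-AD mouse 12, and at most 4249 in the other 13 mice. The summed level of the 10 enzymes was lowest in the same 3 mice, at 1747 to 1886 UPM against 2117 or more in all others.

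Hk2 encodes the inducible hexokinase, which commits glucose to the cell by phosphorylating it. It was the enzyme whose level depended most on the cell class. In microglia it stood at 604 ± 159 UPM (SD, n = 16 mice), with a lowest mouse of 306 and a highest of 935. In astrocytes, the class with the next level, it stood at 18.3 ± 6.67, and in oligodendrocytes at 7.64 ± 6.26. All other classes lay between 0.966 and 5.41, and in 6 of them the median mouse had no Hk2 UMI. Microglia exceeded astrocytes in 16 of 16 mice, by 5.04 ± 0.64 on the log2 scale (exact sign-flip permutation test over mice, adjusted p = 0.00229 over 150 pairs of neighboring classes). Astrocytes exceeded oligodendrocytes in 15 of 16 mice, by 1.56 ± 1.26 (adjusted p = 0.00229). Microglia made up 2288 nuclei and held 52.06% of the 2618 Hk2 UMIs in the table, with 0.564 UMIs a nucleus. Hk2 was also among the 10 genes with the highest fold in microglia over all other nuclei, beside markers such as Inpp5d and Siglech.

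Hk1, the housekeeping hexokinase bound to mitochondria, had no such class. It was at 162 ± 25.9 UPM in astrocytes, 156 ± 84.8 in endothelial nuclei, 150 ± 45.7 in microglia and 149 ± 22.0 in oligodendrocytes, and these neighbors did not differ beyond their spread. Oligodendrocytes exceeded OPCs (98.1 ± 29.3) in 15 of 16 mice (adjusted p = 0.00229 in the same test). Neurons lay between 71.3 in L5 ET and 95.3 in L6 CT. Of the UMIs of Hk1 and Hk2 together, Hk2 gave 79.4% ± 7.90 in microglia, from 63.3% to 92.1% in single mice. The share was 10.49% ± 4.63 in astrocytes and from 1.21% to 5.80% in the other classes. Such a share is read only against the share of the same genes in another class or group, since a 3′ count does not measure 2 genes on 1 scale.

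The promoter of Hk2 is shown because it carries, at 2 places, the letters that hypoxia-inducible factor is known to bind. The 250 bases upstream of the RefSeq start of Hk2 (GRCm38.p6, chr6:82774455-82774704, minus strand) are given 5′ to 3′, with the matches to ACGTG or GCGTG on either strand in capitals, here read from the other strand.
Hk2: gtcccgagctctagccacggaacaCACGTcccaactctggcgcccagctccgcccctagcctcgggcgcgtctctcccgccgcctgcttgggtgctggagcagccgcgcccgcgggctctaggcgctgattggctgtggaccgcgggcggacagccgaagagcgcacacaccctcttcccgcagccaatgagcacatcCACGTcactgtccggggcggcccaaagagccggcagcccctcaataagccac
The matches begin 226 and 52 bases before the start. Across the 10 enzymes, 12 of 16 RefSeq promoters held a match, and only Eno2 had none in any of its promoters. Overlapping promoters of Aldoa hold the same match and were counted apart. Having 2 matches was not particular to Hk2. Single promoters of Ldha held 5, of Hk1 and Pfkp 3, and of Gapdh and Pgk1 2, some of these matches overlapping. The same letters were found in 12679 of 32851 mouse promoters of this length (38.6%), and a match of 5 letters is a description of the sequence and not a site. The gene itself lies on chromosome 6 at 82725025 to 82774454 and overlaps the antisense gene Gm17034. Hk1 (chromosome 10, 62268855 to 62379908) overlaps the antisense gene Hk1os.

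**Figure D1:**
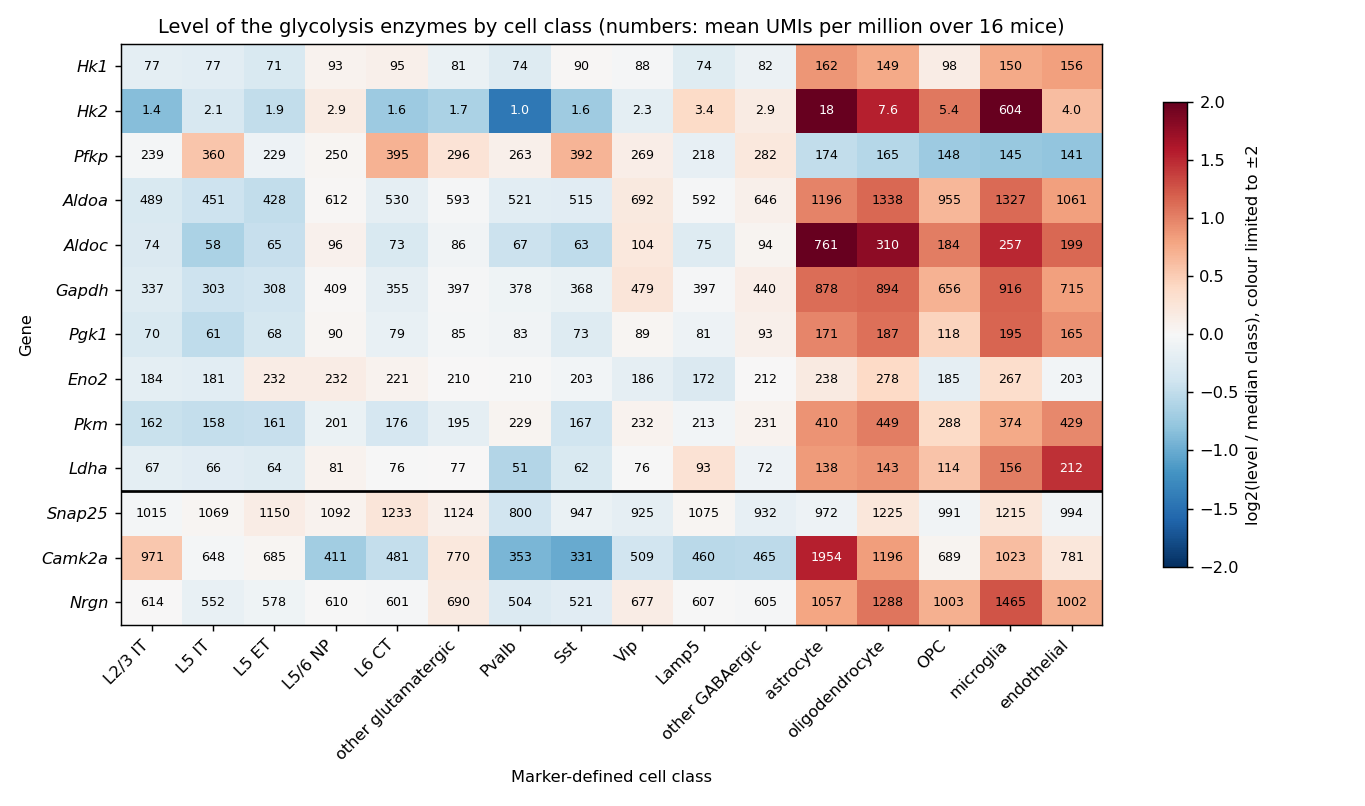
Mean level of each glycolysis enzyme in 16 cell classes, in UPM over 16 mice (numbers), colored by the log2 ratio to the median class of that gene. The neuronal genes Snap25, Camk2a and Nrgn are set below a line. Hk2 stood at 604 in microglia and at 18.3 or less elsewhere, Aldoc at 761 in astrocytes, and Pfkp was the enzyme with its lowest levels in glia and endothelial nuclei.

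Pfkp encodes the platelet-type phosphofructokinase, a subunit of the enzyme that sets the pace of the pathway. Its order of classes ran against that of the other enzymes. L6 CT neurons had 395 ± 73.1 UPM, Sst interneurons 392.3 ± 133 and L5 IT neurons 360 ± 85.0, and the neighboring pairs among these 3 did not differ beyond their spread. L5 IT exceeded the other glutamatergic nuclei (296 ± 55.4) in 15 of 16 mice, by 0.27 ± 0.15 on the log2 scale (exact sign-flip permutation test, adjusted p = 0.00229). This was the only step among the 15 in the order of Pfkp that passed. Astrocytes (174 ± 24.2), oligodendrocytes (165 ± 41.4), OPCs (148 ± 41.8), microglia (145 ± 31.3) and endothelial nuclei (141 ± 44.96) took the last places. Pfkp gave 54.3% to 59.6% of the UMIs of Pfkp, Pfkl and Pfkm in glia and endothelial nuclei, and from 67.3% in L2/3 IT to 80.7% in Sst among neurons. Per nucleus, Pfkp ranged from 0.136 to 1.16 UMIs. Pfkp (chromosome 13, 6579768 to 6648777, minus strand) overlaps Pitrm1 on the other strand.

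Aldolase splits the 6-carbon sugar into 2 trioses, by Aldoa in most tissues and by Aldoc in brain. Aldoc was the second enzyme with a leading class. Astrocytes had 761 ± 190 UPM, from 287 to 1108 in single mice, and oligodendrocytes, next in order, 310 ± 86.6. Astrocytes were higher in 16 of 16 mice, by 1.301 ± 0.29 on the log2 scale (exact sign-flip permutation test, adjusted p = 0.00229). Microglia (257 ± 86.8), endothelial nuclei (199 ± 94.5) and OPCs (184 ± 56.1) followed, and OPCs exceeded Vip interneurons (104 ± 37.7) in 15 of 16 mice (adjusted p = 0.00458). Neurons lay between 58.1 in L5 IT and 104 in Vip. Aldoc gave 39.0% ± 4.72 of the Aldoa and Aldoc UMIs in astrocytes and 11.4% to 18.9% in the other 15 classes. Aldoa reached 1338 ± 343 UPM in oligodendrocytes and 1327 ± 301 in microglia, which did not differ. Microglia exceeded astrocytes (1196 ± 314) in 11 of 16 mice (exact sign-flip permutation test, adjusted p = 0.0258). This step depended on the scaling. With levels scaled by TMM over all class sums, astrocytes (1387) came next after oligodendrocytes (1399) and thus before microglia. The lowest level of Aldoa was 428.5 ± 139 UPM in L5 ET. Aldoa lies on chromosome 7 at 126795234 to 126800751 beside a second annotated gene of the same symbol, and Fam57b overlaps it on the other strand, so that its counts may be split or shared. Aldoc lies on chromosome 11 at 78322968 to 78327781, with no overlapping gene.

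**Figure D2:**
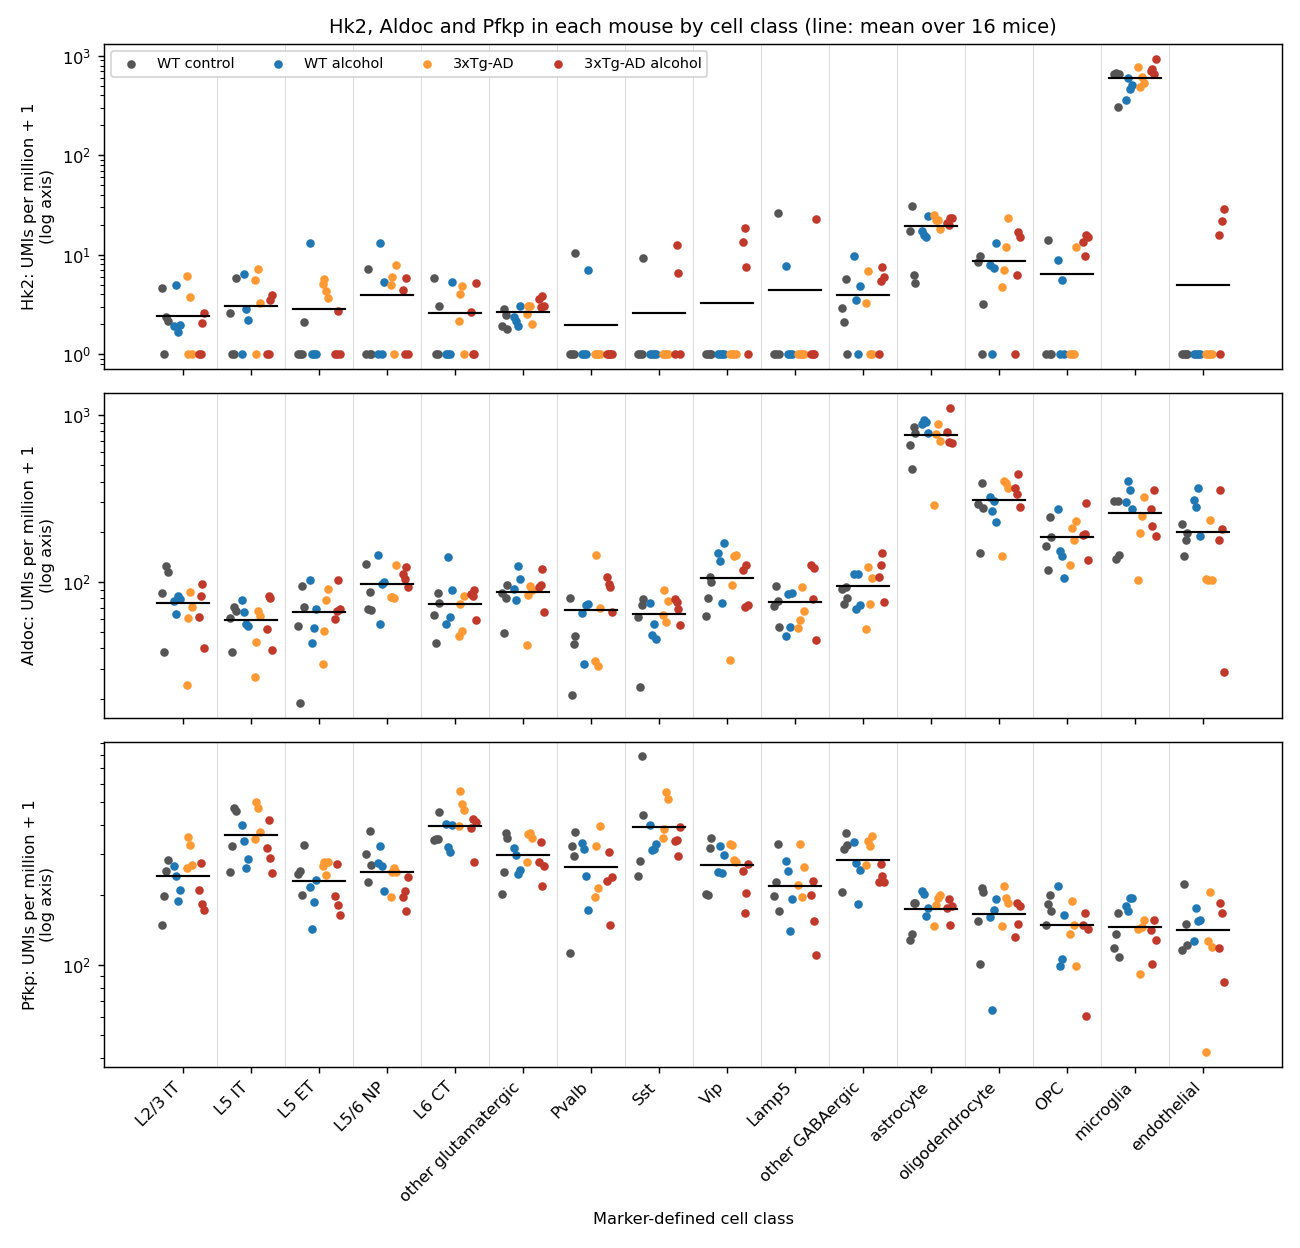
Hk2, Aldoc and Pfkp in UPM by cell class, 1 point a mouse and colored by group, on log axes after adding 1. Lines give the mean of 16 mice. All 16 mice had more Hk2 in microglia than in astrocytes and more Aldoc in astrocytes than in oligodendrocytes.

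Gapdh and Pgk1 encode the pair of enzymes that oxidize the triose and give the first ATP. Gapdh ran with Aldoa over the classes. It stood at 916 ± 214 UPM in microglia, 894 ± 215 in oligodendrocytes and 878 ± 231 in astrocytes, with neither neighboring pair beyond its spread. Astrocytes exceeded endothelial nuclei (715 ± 212) in 13 of 16 mice (exact sign-flip permutation test, adjusted p = 0.0419). OPCs (656 ± 186) exceeded Vip (479 ± 109) in 12 of 16 mice (adjusted p = 0.00916), and the lowest level was 303 ± 54.3 in L5 IT. Pgk1, which lies on the X chromosome at 106187100 to 106203699, ranged from 61.4 in L5 IT to 195 in microglia, with no neighboring pair beyond its spread. Its classes farther apart in the order were not compared. Gapdh lies on chromosome 6 at 125161715 to 125166467 and overlaps Iffo1 on the other strand, and processed pseudogenes of Gapdh are known across the genome, so that some of its reads may not have been placed.

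Eno2, the neuronal enolase, varied least over the classes in UPM (1.62-fold from lowest to highest), but more than most enzymes per nucleus. Its class means ran from 172 ± 49.2 UPM in Lamp5 to 278 ± 55.2 in oligodendrocytes. None of the 15 neighboring pairs differed, and classes farther apart were not compared. Per nucleus, where the larger neuronal nuclei count for more, Eno2 ran from 0.225 to 0.971 UMIs (4.32-fold, against 1.67-fold for Aldoa and Gapdh). It gave 55.7% ± 6.15 of the UMIs of Eno1 and Eno2 in astrocytes and 76.5% ± 3.86 in L5 ET. Pkm, whose product makes pyruvate, stood at 449 ± 100 UPM in oligodendrocytes, 429 ± 138 in endothelial nuclei, 411 ± 96.4 in astrocytes and 374 ± 84.5 in microglia, and microglia exceeded OPCs (289 ± 39.0) in 14 of 16 mice (exact sign-flip permutation test, adjusted p = 0.0419). OPCs in turn exceeded Vip (232 ± 50.3) in 13 of 16 mice (adjusted p = 0.0258), and L5 IT was lowest at 158 ± 33.5. Ldha, the lactate dehydrogenase subunit that favors lactate, was highest in endothelial nuclei at 212 ± 101, but these did not differ from microglia at 156 ± 52.0 (adjusted p = 0.399). Ldha gave 42.2% ± 13.9 of the Ldha and Ldhb UMIs in endothelial nuclei, 22.2% ± 3.53 in astrocytes and 18.8% ± 11.9 in Pvalb interneurons. Eno2 (124760053 to 124769673, chromosome 6), Pkm (59656368 to 59679375, chromosome 9) and Ldha (46841475 to 46855627, chromosome 7) overlap no other gene of the table.

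Neuronal transcripts were also found in the glial nuclei. Camk2a, a kinase of glutamatergic neurons, stood at 1954 ± 675 UPM in astrocytes against 971 ± 144 in L2/3 IT neurons, and the synaptic gene Nrgn at 1465 ± 299 in microglia against 614 ± 88.3 in L2/3 IT. Snap25, a presynaptic gene, lay between 800 and 1233 in all 16 classes. These 3 genes were chosen after the values were seen. Aldoa, Aldoc, Gapdh, Pgk1, Pkm, Ldha and Hk1 were higher in UPM in glia than in neurons, as Nrgn was. Eno2 was higher in oligodendrocytes (278), microglia (267) and astrocytes (238) than in any neuronal class, but not in OPCs (185). No neighboring pair of its classes differed. The part of neuronal RNA in the levels of all these enzymes was not tested. Per nucleus, Aldoa varied only from 1.15 to 1.92 UMIs over the classes and Gapdh from 0.798 to 1.33. The unassigned nuclei, with few UMIs, held Aldoa at 1475 and Gapdh at 1029 UPM. They held Hk2 at 16.1, against 604 in microglia and 18.3 in astrocytes, the class with the next level. Aldoc was at 340 in them, below the 761 of astrocytes but above the 310 of oligodendrocytes and the 257 of microglia. Under each of 19 alternative settings 2 enzymes had a leading class, as in the values above, where these were Hk2 and Aldoc.

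Over the 16 class means, each enzyme was compared with the other genes above 20 UPM in any class, 11474 in all. The genes most like Hk2 were Hcls1 (Pearson r = 0.974), C1qb (r = 0.971) and Fgd2 (r = 0.967). Those most like Aldoc were Ckb, Fbxo2 and Ndrg2 (r = 0.983 to 0.984). Aldoa and Gapdh had each other as the most like gene (r = 0.997), with Cox4i1, a subunit of cytochrome c oxidase, in the first 3 of both. The genes most like Pkm were Atp5b, Ndufb8 and Atp5d (r = 0.983 to 0.986), those of Pgk1 were Tuba1b, Cfl1 and Ywhae, those of Ldha were Psmc3, Rpl10 and Rpl6, and those of Hk1 were Pon2, Prdx1 and Ilrun. Pfkp was nearest to Snhg10 (r = 0.921), Gm26879 and Pclo, and it correlated negatively with each of the other 9 enzymes, from r = -0.32 with Eno2 to r = -0.82 with Pkm. Eno2 had the weakest neighbor, Rrp7a (r = 0.887). The class means share libraries and mice, and the correlations are descriptions over 16 points.

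Groups were compared on counts summed per mouse in each class with edgeR's quasi-likelihood test, adjusted by Benjamini-Hochberg over all genes of a class. After the filter on low counts, 139 of the 160 pairs of enzyme and class were tested. Aldoa, Gapdh, Eno2 and Pkm were tested in all 16 classes, Pfkp and Aldoc in 15, Hk1, Pgk1 and Ldha in 14, and Hk2 in 3, namely microglia, astrocytes and other glutamatergic nuclei. The classes share mice, and so the 139 tests are not independent. Between WT alcohol and WT control mice, 1 of the 139 was called, against 0.0119% of all 100833 tests. In this comparison 111 had a log2 fold change above 0 (49.1% of all tests), the median was 0.27, and 49 had an unadjusted p under 0.05 (9.64% of all tests), 48 of them higher after alcohol. DESeq2 called 3, and 0.207% of all its tests. Between 3xTg-AD alcohol and WT control mice 1 was called (0.987% of all tests), 19 had an unadjusted p under 0.05 (11.9% of all tests) and 86 lay above 0 (49.5%), while DESeq2 called 0 (1.39% of all its tests). No enzyme was called between 3xTg-AD and WT control mice (0.166% of all tests), where 4 had an unadjusted p under 0.05 in edgeR (6.43% of all tests), 91 lay above 0 (50412 of all 100833 tests did) and DESeq2 called 0 (0.224% of its tests). None was called between 3xTg-AD alcohol and 3xTg-AD mice (0.101% of all tests), where 16 had an unadjusted p under 0.05 in edgeR (7.54% of all tests), 72 lay above 0 (49.8%) and DESeq2 called 0 (0.338% of its tests). None was called between 3xTg-AD alcohol and WT alcohol mice (0.41% of all tests), where 24 had an unadjusted p under 0.05 in edgeR (9.23% of all tests), 2 of them higher in 3xTg-AD alcohol, and DESeq2 called 1 (0.561% of its tests). These comparisons share control mice with each other. The median over all genes lay within 0.1 of 0 on the log2 scale in every class and comparison.

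Both calls were Gapdh in L6 CT neurons. WT control mice had 251, 232, 240 and 287 UPM, and WT alcohol mice had 406, 460, 404 and 552. The 3xTg-AD mice had 295, 301, 288 and 374, and the 3xTg-AD alcohol mice had 424, 321, 454 and 389. All mice of both alcohol groups were above all WT controls. Among the 3xTg-AD mice kept in air the lowest, at 288.4, lay only just above the highest control at 287.2. Mouse 31 of the 3xTg-AD alcohol group was below the highest 3xTg-AD mouse. Of all genes tested in L6 CT, 2.84% were higher in all WT alcohol and 3.05% in all 3xTg-AD alcohol mice than in all WT controls. This share was not counted for the 3xTg-AD mice kept in air, so that their order against the controls is a description only. Gapdh was not called in any class between 3xTg-AD and WT control mice (edgeR, smallest adjusted p = 0.7765). The log2 fold change was 0.75 ± 0.161 (SE) between WT alcohol and WT control mice (adjusted p = 0.0272, edgeR) and 0.58 ± 0.156 between 3xTg-AD alcohol and WT control mice (adjusted p = 0.0394). In L6 CT neurons 0.0612% and 1.13% of all genes were called in these comparisons. The first call was lost without any 1 of WT alcohol mice 7 (0.76, adjusted p = 0.0537), 17 (0.81, 0.0548) and 18 (0.61, 0.465) or of WT control mice 27 (0.73, 0.184) and 28 (0.72, 0.0923). The second was lost without 3xTg-AD alcohol mouse 4 (0.56, adjusted p = 0.105), 33 (0.50, 0.176) or 34 (0.58, 0.103), without any 1 WT control mouse (26, 0.63, 0.0649; 27, 0.56, 0.113; 28, 0.55, 0.11; 36, 0.60, 0.0548), or without 3xTg-AD mouse 13 (0.58, 0.0504). Without the 3 libraries rich in Gm42418 the values were 0.78 (adjusted p = 0.122) and 0.62 (adjusted p = 0.108). The L6 CT class held 3245 nuclei. Of all nuclei with L6 CT as their best class, 2365 lay within 2 natural-log units of the limit of the marker gate. These lay on either side of the limit, so that some were not in the class. With a stricter gate the values were 0.66 (adjusted p = 0.603, edgeR) and 0.53 (adjusted p = 0.412).

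DESeq2 also called Gapdh (0.70, adjusted p = 0.00846) and Pkm (0.53, 0.0437) higher in other glutamatergic nuclei of WT alcohol than of WT control mice. For Gapdh the log2 fold change was above 0 in 16 of 16 classes in both alcohol groups against WT control mice. It ran from 0.28 to 0.75 in WT alcohol mice and from 0.32 to 0.58 in 3xTg-AD alcohol mice. Of these classes, 15 and 12 had an unadjusted p under 0.05 (edgeR). In 3xTg-AD mice kept in air it was above 0 in 14 of 16 classes against WT control mice. There it ran from -0.29 to 0.44, with an unadjusted p under 0.05 in 0 classes. Between 3xTg-AD alcohol and 3xTg-AD mice it was also above 0 in 16 of 16 classes, from 0.03 to 0.67, with an unadjusted p under 0.05 in 9 and a smallest adjusted p of 0.342 (edgeR). With all nuclei of a mouse summed, Gapdh was at 392.4, 404, 422 and 478 UPM in WT control mice and at 643, 611, 739 and 798 in WT alcohol mice. The groups did not overlap, and the log2 fold change was 0.68 ± 0.167 (unadjusted p = 0.00075, adjusted p = 0.234 over 16767 genes in edgeR). DESeq2 called it (0.66, adjusted p = 0.021, with 0.899% of its genes called), and also the one between 3xTg-AD alcohol and WT control mice (0.48, adjusted p = 0.0461, against 0.107 in edgeR), where it called 7.34% of all genes. The 3xTg-AD mice had 355, 457, 555 and 512 and the 3xTg-AD alcohol mice 630, 453, 797 and 515, which overlap (0.37, adjusted p = 0.375). Between these groups 0 of the 10 enzymes were without overlap (6.78% of all genes). Without the 3 libraries rich in Gm42418, Gapdh stayed above 0 in 16 of 16 classes in WT alcohol mice, 12 of them with an unadjusted p under 0.05, and in 15 of 16 in 3xTg-AD alcohol against WT control mice, 10 of them with an unadjusted p under 0.05. Between 3xTg-AD alcohol and 3xTg-AD mice it stayed above 0 in 16 of 16, 7 of them with an unadjusted p under 0.05.

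**Figure D3:**
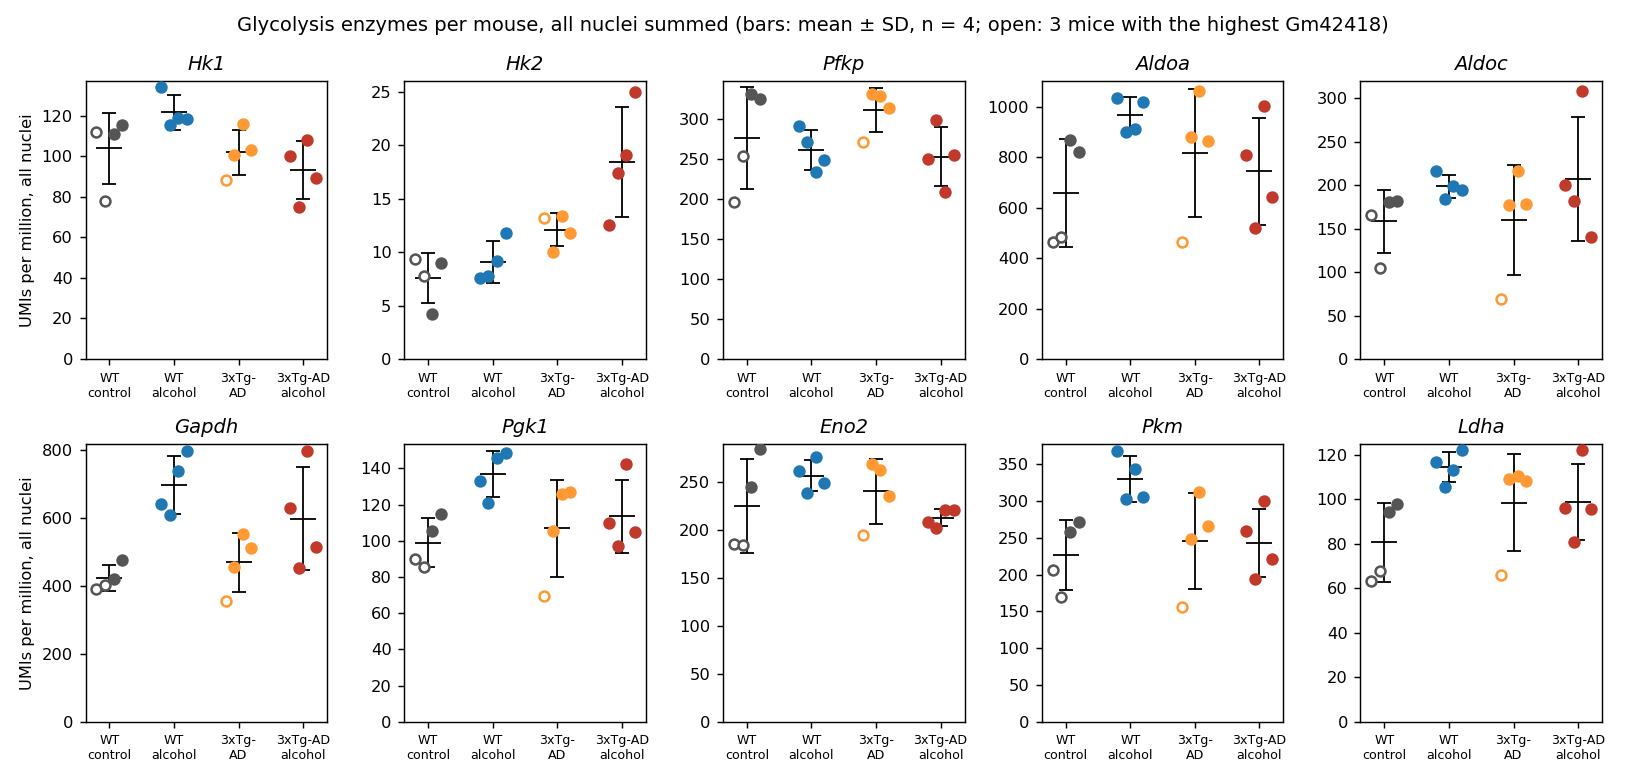
Level of each of the 10 enzymes with all nuclei of a mouse summed, in UPM, 1 point a mouse in 4 groups. Bars give the mean ± SD of 4 mice, and open points mark the 3 libraries rich in Gm42418. Gapdh lay at 611 to 798 in WT alcohol mice against 392.4 to 478 in WT control mice, and Hk2 at 12.49 to 25.0 in 3xTg-AD alcohol mice against 4.22 to 9.35 in WT control mice.

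In all nuclei summed, 6 of the 10 enzymes were higher in every WT alcohol mouse than in every WT control mouse, against 6.61% of all genes that were higher without overlap (9.25% in either direction). These were Aldoa, Aldoc, Gapdh, Pgk1, Pkm and Ldha. Pkm was at 207, 169, 259 and 272 UPM in WT control mice and at 368, 302, 344 and 306 in WT alcohol mice (0.50 ± 0.171, adjusted p = 0.261). Ldha was at 63.3, 67.7, 94.0 and 97.7 in WT control mice and at 117, 106, 113 and 122 in WT alcohol mice (0.47 ± 0.149, adjusted p = 0.257). In both genes the 2 lowest controls were the libraries rich in Gm42418, mice 26 and 27. Aldoa was at 465, 483, 868 and 821 in WT control mice and at 1036, 900, 910 and 1017 in WT alcohol mice, so that its controls lay in 2 pairs (0.53 ± 0.227, adjusted p = 0.32). Without mice 26, 27 and 12 the log2 fold change of Aldoa was 0.24 (adjusted p = 0.641), that of Pkm 0.36 (0.401), that of Ldha 0.31 (0.411), that of Pgk1 0.37 (0.378), that of Aldoc 0.18 (0.749) and that of Gapdh 0.69 (0.279). Aldoc was at 166, 104, 181 and 182 in WT control mice and at 216, 184, 199 and 195 in WT alcohol mice (0.28 ± 0.261, adjusted p = 0.636). Cytosolic ribosomal protein genes had a mean of 22460 UPM in WT control mice, 27500 in WT alcohol mice, 23380 in the 3xTg-AD group and 25170 in the 3xTg-AD alcohol group. With their share in the fit no enzyme was called between WT alcohol and WT control mice (0.0139% of all tests were), and 30 of the 139 tests had an unadjusted p under 0.05 (6.58% of all tests). Their part in the levels of the enzymes was not tested further.

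In 3xTg-AD alcohol mice the levels of most enzymes lay below those of WT alcohol mice. Of the 139 tests 24 had a log2 fold change above 0 (49.9% of all tests), and with all nuclei summed 4 enzymes did not overlap between these groups (10.1% of all genes), Hk2 being higher and Hk1, Eno2 and Pkm lower. Hk1 was at 134, 115, 119 and 118 UPM in WT alcohol mice and at 100, 74.98, 108 and 89.2 in 3xTg-AD alcohol mice (-0.35 ± 0.13, adjusted p = 0.224). Eno2 was at 262, 239, 276 and 249 in WT alcohol mice and at 209, 202, 220 and 220 in 3xTg-AD alcohol mice (-0.24 ± 0.11, adjusted p = 0.337). Pkm was at 260, 194, 300 and 221 in 3xTg-AD alcohol mice, below the 302 of the lowest WT alcohol mouse (-0.41 ± 0.17, adjusted p = 0.294). None of these 3 passed the adjusted threshold in edgeR. In other glutamatergic nuclei DESeq2 called Hk1 lower in 3xTg-AD alcohol than in WT alcohol mice (-0.44, adjusted p = 0.029). Pfkp had log2 fold changes below 0 in 15 of 15 classes between 3xTg-AD alcohol and 3xTg-AD mice, 5 with an unadjusted p under 0.05, and was at 271, 331, 329 and 314 UPM in the 3xTg-AD group and at 250, 298, 208 and 254 in the 3xTg-AD alcohol group with all nuclei summed (-0.29 ± 0.115, adjusted p = 0.29).

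**Figure D4:**
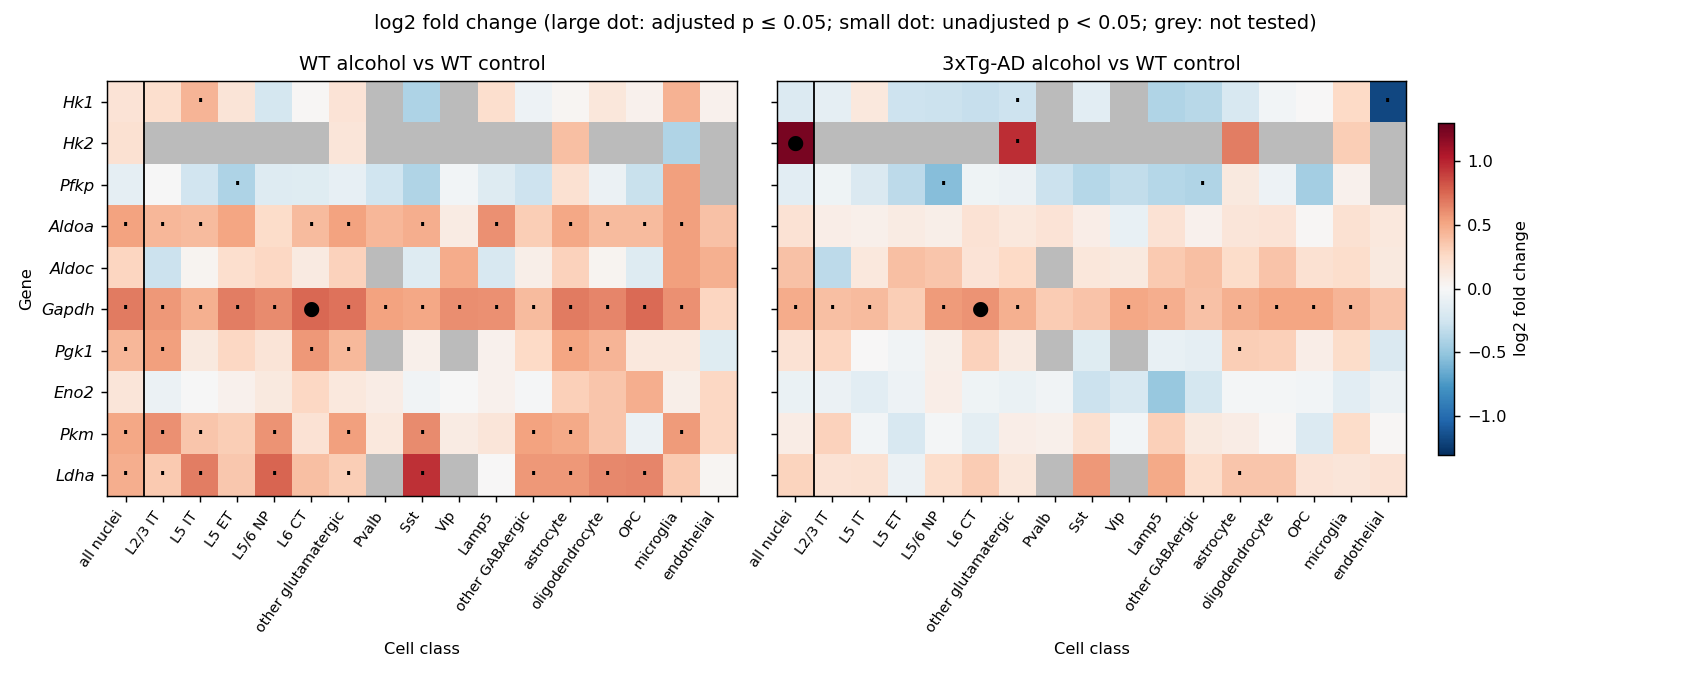
Heat map of the log2 fold change of the 10 enzymes (rows) in all nuclei and 16 classes (columns) for WT alcohol versus WT control mice and for 3xTg-AD alcohol versus WT control mice. Large dots mark an adjusted p of at most 0.05, small dots an unadjusted p under 0.05, and grey was not tested. Gapdh lay above 0 in 16 of 16 classes in both comparisons and was called in L6 CT, and Hk2 was called in all nuclei of 3xTg-AD alcohol mice.

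Whether alcohol acted differently in the 2 lines was asked with the interaction term. No enzyme was called (0.0% of all tests, and 0 by DESeq2 as well, against 0.00298% of its tests), 34 of 139 lay above 0 (50.6% of all tests), and 23 had an unadjusted p under 0.05 (4.15% of all tests), 1 of them above 0. Aldoa was below 0 in 16 of 16 classes, from -0.71 to -0.25, with an unadjusted p under 0.05 in 7 and a smallest adjusted p of 0.721. Ldha had 5 such classes and Pkm 4. With all nuclei summed the interaction of Aldoa was -0.63 (95% interval -1.31 to 0.04, adjusted p = 0.944), that of Pkm -0.49 (-0.99 to 0.02, 0.944) and that of Ldha -0.44 (-0.89 to -0.0015, 0.944).

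Hk2 was the one enzyme called with all nuclei summed, where 4.06% of all genes were called between 3xTg-AD alcohol and WT control mice and 1.56% were called higher. No enzyme was called with all nuclei summed between 3xTg-AD and WT control mice (0.435% of all genes), WT alcohol and WT control mice (0.0179%), 3xTg-AD alcohol and 3xTg-AD mice (0.483%) or 3xTg-AD alcohol and WT alcohol mice (0.942%) in edgeR. WT control mice had 9.35, 7.80, 4.22 and 8.97 UPM, and WT alcohol mice 7.57, 7.73, 9.18 and 11.8. The 3xTg-AD mice had 13.2, 10.1, 13.4 and 11.8, and the 3xTg-AD alcohol mice 12.49, 17.4, 19.1 and 25.0. Hk2 was higher in every 3xTg-AD alcohol mouse than in every WT control mouse (1 of 10 enzymes, against 4.23% of all genes that were higher without overlap), and every 3xTg-AD mouse was above every WT control mouse too (1 of 10 enzymes, against 1.53% of all genes). The log2 fold change was 1.24 ± 0.25 between 3xTg-AD alcohol and WT control mice (2.36-fold, adjusted p = 0.011 in edgeR) and stayed past the threshold under all 22 alternatives, from 1.02 to 1.69. It was 0.62 ± 0.254 between 3xTg-AD and WT control mice (adjusted p = 0.487), 0.20 ± 0.255 between WT alcohol and WT control mice (0.739), 0.61 ± 0.242 between 3xTg-AD alcohol and 3xTg-AD mice (0.29) and 1.04 ± 0.244 between 3xTg-AD alcohol and WT alcohol mice (0.0519). The last was called under 8 of 22 alternatives, with adjusted p from 0.00552 to 0.171. DESeq2 was among these (1.06, adjusted p = 0.00552, with 2.51% of all genes called). The value between 3xTg-AD alcohol and 3xTg-AD mice was called under 1 of 22. This was with the ribosomal RNA-associated share in the fit (0.87, adjusted p = 0.04765, edgeR). The interaction was 0.41 (95% interval -0.33 to 1.15, adjusted p = 0.944).

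Since microglia held most Hk2, the number of microglia has to stand beside this change, and fewer cells of a type and less RNA per cell cannot be told apart in a sum over all nuclei. Microglia made up 1.56%, 1.15%, 0.631% and 2.03% of the nuclei in WT control mice, and 1.79%, 1.03%, 2.84% and 1.98% in WT alcohol mice. In the 3xTg-AD group they made up 1.89%, 1.17%, 1.97% and 1.72%, and in the 3xTg-AD alcohol group 1.79%, 3.57%, 2.67% and 4.50%. Between 3xTg-AD alcohol and WT control mice the mean share was 3.13% against 1.34% (two-sided exact permutation test, p = 0.0571, adjusted p = 0.191 over 20 tests). The summed level of the 11 microglial markers in all nuclei was 226 ± 37.9 against 136 ± 25.1 UPM (exact permutation test, p = 0.0286, the smallest that 4 against 4 can give, adjusted p = 0.191). Within microglia Hk2 was at 655, 679, 306 and 663 UPM in WT control mice, and 358, 602, 461 and 509 in WT alcohol mice. The values were 781, 480, 615 and 528 in the 3xTg-AD group and 709, 729, 654 and 935 in the 3xTg-AD alcohol group. All 3xTg-AD alcohol mice were above all WT alcohol mice (2.88% of all microglial genes were), with a log2 fold change of 0.71 (edgeR, adjusted p = 0.0503, where 0.98% of microglial genes were called). It passed under 12 of 23 alternatives, with adjusted p from 0.00441 with a stricter marker gate (0.90) to 0.326 without 3xTg-AD alcohol mouse 34 (0.58), and DESeq2 did not call it (0.72, 0.109). The interaction within microglia was 0.72 (95% interval 0.13 to 1.302, unadjusted p = 0.0168, adjusted p = 0.92). Against WT control mice the value was 0.32 (adjusted p = 0.66), from 0.16 without WT control mouse 28 to 0.41 without WT control mouse 26, and up to 0.69 with the ribosomal RNA-associated share in the fit. It passed under none of the 23 alternatives. WT control mouse 28 was the lowest, with 44 microglia and 11 Hk2 UMIs in them.

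Hk2 outside microglia was also higher in the 3xTg-AD alcohol than in the WT control mice. With microglia left out, an alternative chosen after the values were seen, WT control mice had 4.60, 4.18, 3.22 and 3.56 UPM and WT alcohol mice 4.07, 3.74, 3.35 and 6.39. The 3xTg-AD mice had 6.99, 6.94, 7.27 and 6.90 and the 3xTg-AD alcohol mice 6.59, 6.53, 9.90 and 7.95. The 8 mice of the 3xTg-AD line, the lowest at 6.53, were thus above the 8 WT mice, the highest at 6.39. These 2 values lie close together, and the split is part of the same later choice. In it 0.264% of all genes were higher without overlap, which is a description and not a test. In edgeR the log2 fold change was 0.96 ± 0.225 between 3xTg-AD alcohol and WT control mice (adjusted p = 0.0251, where 3.6% of 16685 genes were called), 0.81 ± 0.228 between 3xTg-AD and WT control mice (adjusted p = 0.171) and 0.84 ± 0.22 between 3xTg-AD alcohol and WT alcohol mice (adjusted p = 0.0866). With alcohol in the WT line it was 0.12 (95% interval -0.36 to 0.61) and in the 3xTg-AD line 0.16 (-0.30 to 0.61). The nuclei outside microglia include the unassigned nuclei, which held 24.37% of all Hk2 UMIs, and microglia below the marker limits among them were not tested. In astrocytes Hk2 was at 16.4, 30.1, 5.26 and 4.19 UPM in WT control mice, the first 2 values being those of mice 26 and 27, and between 17.1 and 24.1 in the 3xTg-AD mice. Astrocytes held 10.28% of the 2618 Hk2 UMIs of all mice, so that each of these values rests on few UMIs. Astrocyte Hk2 was not called in any comparison of all mice. There 0.131% of astrocyte genes were called between 3xTg-AD and WT control mice, and 0.561% between 3xTg-AD alcohol and WT control mice. Without the 3 libraries rich in Gm42418 astrocyte Hk2 was called higher than in WT control mice. The log2 fold change was 2.15 in 3xTg-AD mice (edgeR, adjusted p = 0.0383) and 2.26 in 3xTg-AD alcohol mice (0.00631). The share of astrocyte genes called in that fit is not given, and the 2 control mice left were those at 5.26 and 4.19 UPM. In the same fit the value was 1.97 between WT alcohol and WT control mice (unadjusted p = 0.00012, adjusted p = 0.269) and 0.29 between 3xTg-AD alcohol and WT alcohol mice (adjusted p = 0.634), so that the other 3 groups had fitted levels above those of the 2 controls.

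**Figure D5:**
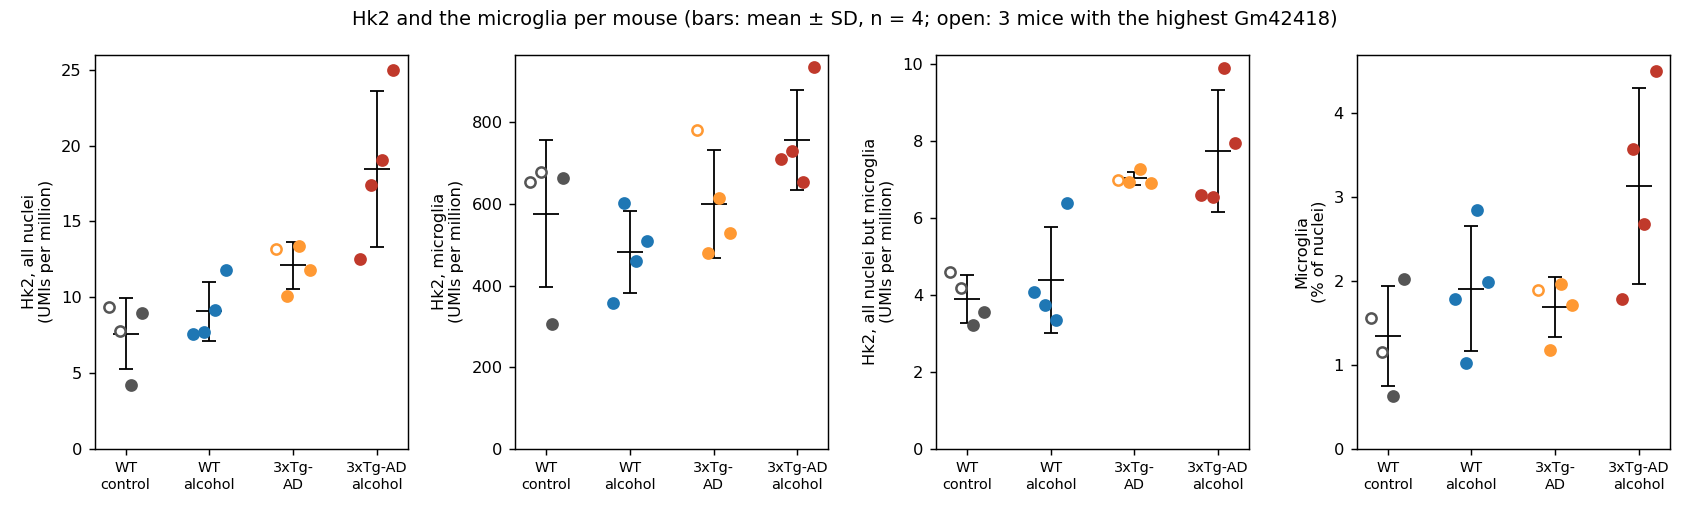
Hk2 by mouse and group in all nuclei, in microglia and in all nuclei but microglia, in UPM, beside the percentage of nuclei that were microglia. Bars give the mean ± SD of 4 mice, and open points mark the 3 libraries rich in Gm42418. In 3xTg-AD alcohol mice Hk2 in all nuclei lay at 12.49 to 25.0 and in microglia at 654 to 935 UPM, and microglia made up 1.79% to 4.50% of nuclei.

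In all nuclei Hk2 gave 6.93% ± 2.32 of hexokinase UMIs in WT control mice, 6.96% ± 1.58 in WT alcohol mice, 10.7% ± 1.63 in the 3xTg-AD group and 16.7% ± 4.67 in the 3xTg-AD alcohol group (SD, n = 4 each), with no test beyond those above. Aldoc gave 19.9% ± 4.29, 17.1% ± 0.789, 15.9% ± 2.02 and 21.8% ± 3.55 of aldolase UMIs in the same order of groups, and Eno2 70.9% ± 4.69, 65.5% ± 1.95, 70.3% ± 2.97 and 62.3% ± 4.32 of enolase UMIs.

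Of the genes around the 10 enzymes, few were called. The list of other glycolysis genes held 21 genes of the table, of which 18 were tested in at least 1 class. None of their 139 tests was called between 3xTg-AD alcohol and WT control mice or between WT alcohol and WT control mice, with 21 and 23 at an unadjusted p under 0.05, beside 11.9% and 9.64% of all tests. With all nuclei summed, Eno1, the common enolase, was called higher in 3xTg-AD alcohol than in WT control mice (0.51 ± 0.133, adjusted p = 0.0425, edgeR), where 4.06% of all genes were called. In the list of 11 genes of glucose, lactate and pyruvate transport, Bsg, the chaperone of the lactate carriers, was called higher in endothelial nuclei of 3xTg-AD alcohol than of WT control mice (0.88 ± 0.201, adjusted p = 0.00407, with 1.73% of all genes called in that class). In the list of 17 hypoxia-inducible factor genes and targets outside glycolysis, Vegfa, the vascular growth factor, was called higher in 3xTg-AD alcohol than in WT alcohol mice in all nuclei (0.68 ± 0.135, adjusted p = 0.0204, with 0.942% of all genes called) and in other GABAergic nuclei (0.99 ± 0.226, adjusted p = 0.0419, with 0.24% of all genes called). Bnip3, a mitophagy receptor of the same list, fell by 0.81 ± 0.196 in astrocytes of this comparison (adjusted p = 0.0427, with 0.477% of all genes called). No gene of pyruvate dehydrogenase and its kinases, or of glycogen and pentose phosphate metabolism, was called between 3xTg-AD alcohol and WT control mice, where 8 of 84 and 9 of 104 tests had an unadjusted p under 0.05, no more than the 11.9% of all tests. With 1 mouse left out at a time, the call held in 8 of 16 cases for Eno1 (0.41 to 0.61), 13 for Vegfa in all nuclei (0.49 to 0.76), 8 for Vegfa in other GABAergic nuclei (0.90 to 1.21), 9 for Bnip3 (-0.88 to -0.68) and 15 for Bsg (0.72 to 1.01).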

How the data were processed

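Single nuclei of the medial PFC of 16 mice (4 per group) were profiled with 10x Genomics 3′ chemistry. The authors aligned reads with Cell Ranger 6.1.1 to mm10 and deposited 1 table of raw UMI counts (19999 genes, 114512 nuclei), which was used as deposited. Human transgenes are not among its genes. The cells carried no type labels used here, so classes were assigned from 155 marker genes by a likelihood score, with a lead of at least 3 natural-log units and 3 marker UMIs, and no doublet caller was run. Counts were summed per mouse and class (at least 10 nuclei a mouse and 3 mice a group) and tested with edgeR 4.0.16 (TMM, filterByExpr, robust quasi-likelihood F test over all 4 groups), with DESeq2 1.42.0 as an alternative, in R 4.3.3. Benjamini-Hochberg adjustment ran over the genes of a class and contrast, with calls at 0.05. Neighboring classes were compared by a two-sided exact sign-flip permutation test over mice on log2(UPM + 1). Only neighbors in the order of the class means were tested, so that a lack of difference holds for those pairs alone. The edgeR step was tested on simulated data. Named genes were the 10 enzymes, the called genes of the pathway lists and, for likeness, the 3 nearest genes of each enzyme. The result of 1 list gene is not reported here. The enzymes and lists were chosen with earlier results of these data known. Depth was 9622031 to 17544364 UMIs a mouse. Alternatives changed the tool, scaling, filter, gate, covariates and mice. Each mouse is 1 library, and p-values measure the spread between mice. Promoter sequences are from RefSeq (GRCm38.p6), gene positions from GENCODE on GRCm38.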

Additional observations from a re-analysis of the deposited data

Results flagged for a closer look

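In 9 of 84 groups of 4 mice, 1 mouse lay farther from the others than Dixon's 95% limit of 0.829 allows, and chance gives about 5% of groups. WT control mouse 27, rich in Gm42418, was low for Hk1 in all nuclei (77.74 UPM, others 110.8 to 115.4), for Hk1 in astrocytes (114.5, others 183.4 to 190.8) and for Ldha in endothelial nuclei (100.9, others 208.3 to 229.9). The 3xTg-AD mouse 12, also rich in Gm42418, was low for Ldha in all nuclei (65.91, others 108.0 to 110.6), for Eno2 in oligodendrocytes (172.3, others 283.2 to 298.5) and for Pkm in oligodendrocytes (292.2, others 458.0 to 467.0). WT control mouse 28 was low for Hk2 in microglia (306.4, others 654.6 to 679.2). WT control mouse 36 was high for Pfkp in L6 CT (454.1, others 343.3 to 348.3), and 3xTg-AD mouse 21 for Gapdh in L6 CT (373.6, others 288.4 to 301.3).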

How the results depend on the processing

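The count of enzymes with a leading class was 2 under all 19 alternatives, and the count of interaction calls 0 under all 23. The call between 3xTg-AD alcohol and WT control mice (1 of 139) became 0 with DESeq2, with the ribosomal protein share as covariate, with the ribosomal RNA-associated share as covariate and with the stricter gate, and was 0 to 1 with 1 mouse left out. Without the 3 libraries rich in Gm42418 it was 1, but for another gene, astrocyte Hk2 in place of Gapdh in L6 CT. With all mice 0.987% of all tests were called in this comparison, and the share without the 3 libraries is not given. Between 3xTg-AD and WT control mice (0) the count was 1 without the 3 libraries rich in Gm42418. This was astrocyte Hk2, with 2 control mice left. With all mice 0.166% of all tests were called in this comparison, and the share without the 3 libraries is not given. Between WT alcohol and WT control mice (1) it was 3 with DESeq2 (0.207% of all its tests) and 4 with no filter on low counts (0.0797%), and 0 with the ribosomal protein covariate, with the stricter gate and without the 3 libraries, and 0 to 1 with 1 mouse left out. Between 3xTg-AD alcohol and 3xTg-AD mice (0) it was 3 with the ribosomal RNA-associated covariate, which raised the share of all tests called from 0.101% to 1.27%. Between 3xTg-AD alcohol and WT alcohol mice (0) the count was 1 with DESeq2 (0.561% of all its tests), for Hk1 in other glutamatergic nuclei. It was also 1 with DESeq2 size factors, with the ribosomal protein covariate and with the stricter gate, each time for Hk2 in microglia. In that class 0.98% of genes were called in the fit used above, and the shares in these settings are not given. The count was 5 with the ribosomal RNA-associated covariate and 2 without the 3 libraries. These settings raised the share of all tests called from 0.41% to 1.03% and 0.874%. With 1 mouse left out the count was 0 to 1. In all nuclei (1 of 50 tests) it was 4 with DESeq2, 2 with no filter, 4 with the ribosomal RNA-associated covariate, 2 without the 3 libraries and 1 to 2 with 1 mouse left out. DESeq2 called 7.34% of all genes between 3xTg-AD alcohol and WT control mice (edgeR 4.06%). It called 2.51% between 3xTg-AD alcohol and WT alcohol mice (0.942%) and 0.899% between WT alcohol and WT control mice (0.0179%). Its 4 calls lay in these comparisons. Shares for the other settings in all nuclei are not given. The causes were not tested. Hk2 in all nuclei between WT alcohol and WT control mice turned from 0.20 to -0.0104 without WT control mouse 28 (range -0.01 to 0.39 with 1 mouse left out). No paired analysis was possible because each mouse number occurs in 1 group only. Hk2 outside microglia rests on few UMIs a nucleus.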
